A study of Mus musculus with 12 samples.

Results

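The BCL2 family decides, at the outer mitochondrial membrane, whether a cell survives or undergoes apoptosis. Of its genes, 10 were followed here, taken by symbol from a list drawn up with earlier results of these data known: Bcl2, Bcl2l1, Bcl2l2, Mcl1 and the Bcl2a1 copies Bcl2a1a, Bcl2a1b and Bcl2a1d, which encode prosurvival proteins (BCL2, BCL-XL, BCL-W, MCL1 and A1), Bcl2l11 and Bid, which encode the BH3-only proteins BIM and BID, and Bak1, which encodes the pore-forming effector BAK. All 10 were found among the 46078 gene identifiers of the tables, and all 10 passed the filter on low counts that left 13837 genes for testing. Prosurvival proteins bind BH3-only proteins and effectors and hold them inactive. When BH3-only proteins are in excess, BAK and its relative BAX form pores, cytochrome c leaves the mitochondria and caspases are activated. In macrophages MCL1 and A1 are the members best known for keeping cells alive during inflammation, and BIM limits their lifespan.

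RNA was sequenced from bone marrow-derived macrophages of male C57BL/6 mice that lacked Apoe (ApoE-/-) in every group. The Dicer KO mice were labelled LysMcre/+;Dicerfl/fl;ApoE-/-, in which Cre from the myeloid LysM (Lyz2) locus deletes floxed Dicer1, the gene of the enzyme that cuts microRNA precursors. Their littermate controls were labelled LysMcre/+;Dicer+/+;ApoE-/-. Marrow cells were differentiated for 7 days and, after an overnight incubation with ethanol, received LPS, the endotoxin of Gram-negative bacteria sensed through TLR4, or D-PBS vehicle for 6 h. The LPS dose reads 100 ng/ul in the labels. There were 3 libraries in each of the 4 groups, Dicer KO LPS, control LPS, Dicer KO vehicle and control vehicle. Nothing in the labels says whether the 3 came from separate mice, so p-values measure the spread between these libraries, which may be technical.

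Each library held 16172600 to 18886948 counts in genes. Dicer1 averaged 15.5 ± 1.1 CPM (counts scaled to a common library size with TMM factors) in Dicer KO LPS libraries against 49.4 ± 2.84 CPM in control LPS libraries, and 19.7 ± 0.369 CPM in Dicer KO vehicle libraries against 43.7 ± 1.44 CPM in control vehicle libraries (SD, n = 3 each). Lyz2, the locus that carries Cre, averaged 14.1 ± 1.49 CPM in Dicer KO vehicle libraries and 5714 ± 335 CPM in control vehicle libraries, although the sample titles give both genotypes 1 copy of Cre. In LPS it averaged 18.9 ± 2.38 CPM in Dicer KO and 4060 ± 200 CPM in control libraries. The names under which the control libraries were deposited mark LysM as wild type, so whether the controls carried Cre is uncertain. Because Lyz2 was nearly absent in Dicer KO libraries, the number of Cre copies in those mice is uncertain too. Whatever the controls carried, near absence of Lyz2, Cre dose and loss of Dicer cannot be told apart in any Dicer KO against control value. Dicer KO vehicle replicate 2 and control vehicle replicate 3 stood apart from the other libraries of their groups (chi-square per degree of freedom of 8.4 to 11.89 and 9.84 to 14.12, against 2.3 and 2.54 between the other libraries of the group), and calls that rest on them are named below. Dicer KO LPS replicate 1 differed to a lesser extent (4.2 and 5.06, against 1.32 between the others of its group). It is not counted below among the libraries that stood apart. The 8 macrophage markers were all detected, with a summed level of 9289 to 9465 CPM in Dicer KO LPS, 8604 to 8767 in control LPS, 6887 to 7765 in Dicer KO vehicle and 7110 to 7825 in control vehicle libraries. The summed level of 9 neutrophil markers was 157 to 180, 148 to 161, 94.2 to 125 and 101 to 134 CPM in the same groups, with Ly6g at 0 in Dicer KO LPS. Neutrophils also transcribe Bcl2a1 genes, and the part of these cells in the results was not tested. The 7 dendritic cell markers summed to 10.8 to 12.6, 3.91 to 5.04, 3.86 to 4.89 and 1.47 to 2.8 CPM. Of the 3 that were tested (Xcr1, Ccr9 and Kit), 2 were called higher in Dicer KO in each treatment. The shares over all tested genes were 28.8% in LPS and 25.0% in vehicle. They need not be the same 2, as Ccr9 averaged 0.193 CPM in Dicer KO and 0.178 CPM in control vehicle libraries. The part of dendritic cells in the results was not tested. T and NK cell markers summed to 34 to 36.9 CPM in Dicer KO LPS and 12.8 to 15.6 CPM in control LPS libraries, nearly all of it from Lck, while Ncr1 was at 0 throughout. Of the 6 B cell markers 1 passed the filter, with sums from 0.827 to 5.06 CPM, and the 6 mast cell markers summed to at most 0.526 CPM. Of 6 genes of dividing cells, 5 fell and 1 rose with LPS in either genotype. Over all tested genes 42.7% fell and 37.4% rose with LPS in Dicer KO, and 41.1% and 38.0% in control. In bulk RNA, fewer cells of a type and less RNA per cell cannot be told apart.

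Compared per kilobase of annotated exon, Mcl1 had the highest counted level of the family in all 4 groups, and Bcl2 was among the lowest. Reads shared between the Bcl2a1 copies may have been set aside as not unique, and those that Bcl2a1b shares with an overlapping gene as ambiguous. The levels of these copies may thus be too low. Their places in the order, also against Mcl1 and Bak1 under LPS, are therefore uncertain. Mcl1 stood at 409 ± 11.3 CPM per kilobase in Dicer KO LPS, 339 ± 6.55 in control LPS, 325 ± 23.2 in Dicer KO vehicle and 361 ± 21.2 in control vehicle libraries. In Dicer KO LPS the order below it ran Bcl2a1d (369 ± 5.71), Bcl2a1a (128 ± 4.73), Bak1 (97.7 ± 1.75), Bcl2a1b (75.8 ± 1.4), Bcl2l1 (32.4 ± 2.47), Bcl2l11 (26.2 ± 2.0), Bid (22.4 ± 1.14), Bcl2l2 (10.1 ± 0.557) and Bcl2 (0.219 ± 0.0593). In control LPS libraries the neighbours Bcl2a1a (55.8 ± 5.01) and Bcl2a1b (50.4 ± 5.0) differed by less than the sum of their SDs, as did Bcl2l11 (12.1 ± 0.398) and Bcl2l2 (11.4 ± 1.22), and Bid (8.52 ± 0.567) came below both. In vehicle Bak1 was second, at 46.2 ± 2.64 CPM per kilobase in Dicer KO and 29.2 ± 2.35 in control libraries. Bcl2l11 (24.0 ± 0.585) and Bcl2l1 (22.2 ± 3.32) did not differ beyond their spread in Dicer KO vehicle libraries, nor did Bcl2l1 (12.7 ± 3.21) and Bid (10.8 ± 2.12) in control vehicle libraries. All Bcl2a1 copies were below 2.5 CPM per kilobase in vehicle.

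**Figure D1:**
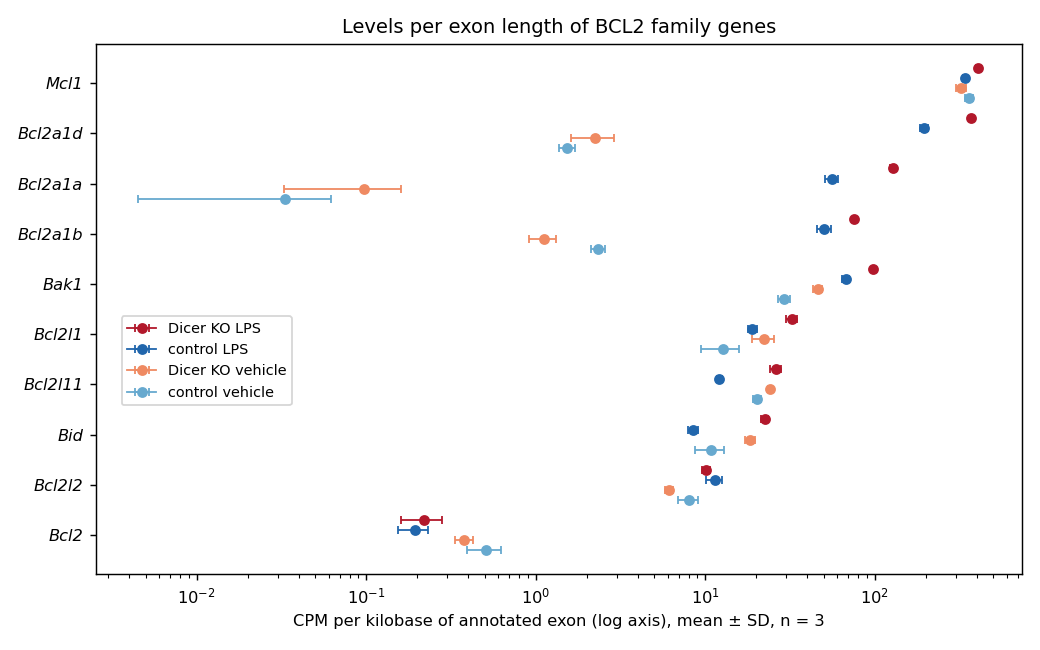
Mean level of each gene in CPM per kilobase of annotated exon on a log axis (n = 3 libraries; bars, SD), with the 4 groups in separate colours. Mcl1 is at 325 to 409 in every group, while the Bcl2a1 copies lie at 50.4 or above in LPS and at 2.34 or below in vehicle. Reads shared between the Bcl2a1 copies, or by Bcl2a1b with an overlapping gene, may be missing from their levels.

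Under LPS, 8 of the 10 genes were higher in Dicer KO than in control macrophages and none was lower at an adjusted p under 0.05, against a background of 28.8% of all tested genes called higher and 27.0% called lower. The higher genes include Bcl2a1a, Bcl2a1b and Bcl2a1d, near-identical copies whose reads can be confused. Counts and medians of the members, here and below, are therefore not those of 10 separate genes. The edgeR fit that gave these calls had no lower member at an unadjusted p under 0.05 either, and DESeq2 called none. Bcl2l2 was called lower in some other edgeR settings, given with that gene. The largest differences were those of Bid (log2 fold change 1.40), Bcl2a1a (1.20), Bcl2l11 (1.11) and Bcl2a1d (0.92), so prosurvival and proapoptotic members were both among the higher genes. In vehicle 5 members were higher in Dicer KO (Bcl2l1, Bcl2l11, Bcl2a1d, Bak1 and Bid) and 2 were lower (Bcl2l2 and Bcl2a1b), beside 25.0% of all genes called higher and 21.2% called lower. The median log2 fold change of the members, Dicer KO over control, was 0.68 in LPS and 0.39 in vehicle, against medians over all genes of -0.03 and 0.01. Scaling by library totals in place of TMM moved the median over all genes to -0.38 in LPS and -0.12 in vehicle, and changed the calls over all genes to 1885 higher and 7626 lower in LPS (3983 and 3741 with TMM) and to 2229 and 4577 in vehicle (3459 and 2935). Under that scaling Mcl1 in LPS turned to -0.08, the other 7 genes called higher in LPS remained positive, and Bcl2l2 was called lower.

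**Figure D2:**
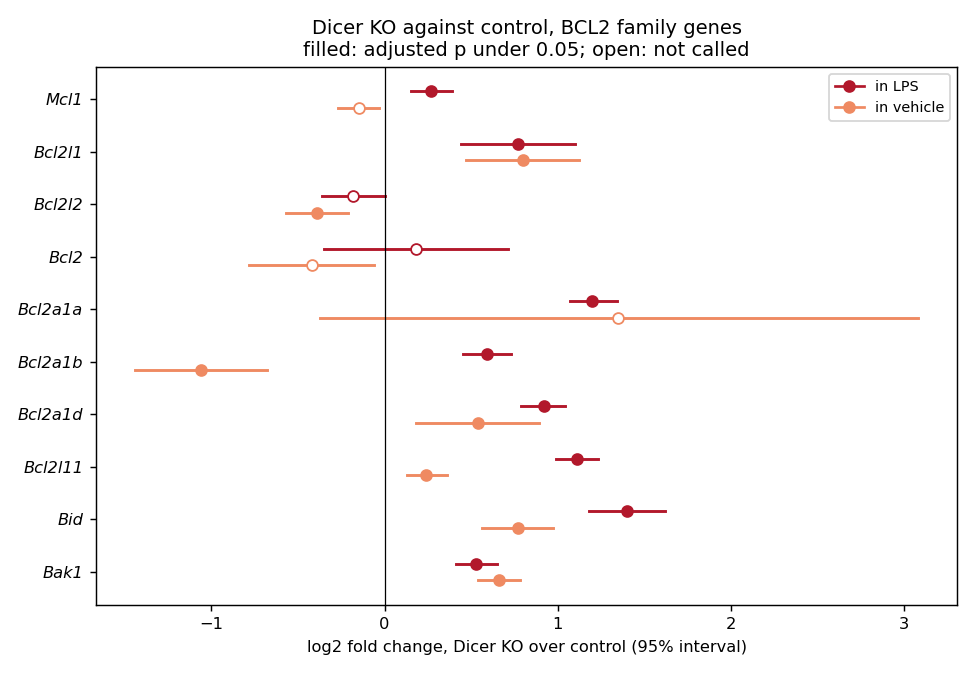
Log2 fold change of each gene, Dicer KO over control, with its approximate 95% interval, in LPS and in vehicle (filled points, adjusted p under 0.05, and open points, not called). In LPS 8 filled points lie to the right of 0. In vehicle 5 do, and Bcl2l2 and Bcl2a1b lie to the left. The Bcl2a1a interval in vehicle, from 5 and 2 counts, is narrower than counting error alone.

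LPS raised 8 members in Dicer KO macrophages and lowered 1 (Bcl2), where 37.4% of all genes were called higher and 42.7% lower. In control macrophages 6 rose and 3 fell (Bcl2, Bcl2l11 and Bid), where 38.0% of all genes were called higher and 41.1% lower. Tested as a difference of the 2 responses, 4 members responded more positively in Dicer KO than in control (Bcl2l11, Mcl1, Bcl2a1b and Bid) and none more negatively, beside 14.9% and 18.8% of all genes. That none was more negative is a count from the same edgeR fit, where no member had a negative difference at an unadjusted p under 0.05, and DESeq2 called none either. Bak1 was called more negative in some other edgeR settings, given with that gene. With library totals the medians over all genes shifted to -0.85 for the LPS response in Dicer KO, -0.58 in control and -0.27 for their difference. The calls over all genes then stood at 2637 higher and 9623 lower (5173 and 5905 with TMM), 3066 and 8737 (5258 and 5690), and 997 and 5136 (2067 and 2602). LPS responses of the members are therefore given relative to the other genes, with the value under library totals wherever its sign differed.

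**Figure D3:**
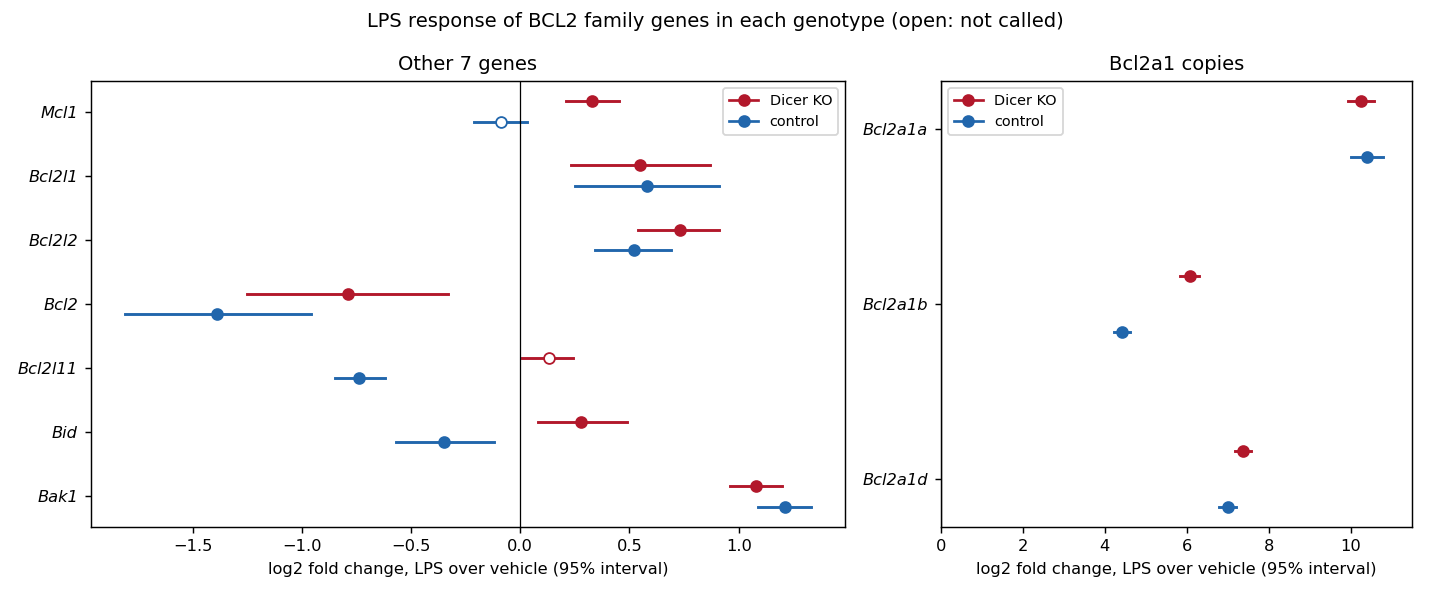
Log2 fold change of each gene, LPS over vehicle, with its approximate 95% interval, in Dicer KO and in control macrophages (open points, not called). Bcl2l11 and Bid lie left of 0 in control and right of 0 in Dicer KO. The Bcl2a1a points rest on 5 and 2 counts in vehicle, and their drawn intervals are narrower than counting error alone, given in the text.

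Mcl1 encodes a short-lived prosurvival protein that binds BIM and BAK. It had 1401, 1434 and 1357 CPM in Dicer KO LPS libraries and 1174, 1167 and 1132 CPM in control LPS libraries. In vehicle its level was 1182, 1025 and 1123 CPM in Dicer KO libraries and 1291, 1255 and 1151 CPM in control libraries. The LPS groups did not overlap, with Dicer KO above control, while the vehicle groups did. Mcl1 was higher in Dicer KO under LPS (log2 fold change 0.27 ± 0.06 (SE), adjusted p = 0.00109; -0.08 with library totals). In vehicle the value was -0.15 ± 0.06 (adjusted p = 0.054), which passed without control vehicle replicate 3 (-0.20, adjusted p = 0.0077) or Dicer KO vehicle replicate 1 (-0.19, adjusted p = 0.0288) and was -0.09 without Dicer KO vehicle replicate 2 (adjusted p = 0.218). LPS raised it in Dicer KO (0.33 ± 0.06, adjusted p = 7.79e-05; -0.42 with library totals) and the response in control was -0.09 ± 0.06 (adjusted p = 0.189), or -0.14 without control vehicle replicate 3 (adjusted p = 0.0383) and -0.06 without control vehicle replicate 1 (adjusted p = 0.456). The difference of the responses was 0.42 ± 0.09 (adjusted p = 0.00111) and, with library totals, 0.20 and no longer called (adjusted p = 0.0675).

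Bcl2l1 encodes BCL-XL, which restrains BAK and BAX, and can be spliced to a shorter proapoptotic form that gene counts do not separate. Its level was 137, 148 and 160 CPM in Dicer KO LPS libraries and 91.6, 81.5 and 88.2 CPM in control LPS libraries. In vehicle it was 87.4, 118 and 99.7 CPM in Dicer KO and 46.8, 53.3 and 75.0 CPM in control libraries. Every Dicer KO library was above every control library of the same treatment, and the highest library of each vehicle group was the one that stood apart. Bcl2l1 was higher in Dicer KO by 0.77 ± 0.17 on the log2 scale in LPS (adjusted p = 0.00295) and by 0.80 ± 0.17 in vehicle (adjusted p = 0.00317). LPS raised it by 0.55 ± 0.16 in Dicer KO (adjusted p = 0.011; -0.20 with library totals) and by 0.58 ± 0.17 in control (adjusted p = 0.00984; 0.06 with library totals). The difference of the responses was -0.03, with an approximate 95% interval of -0.49 to 0.43.

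Bcl2l2, the gene of the prosurvival BCL-W, was lower in Dicer KO than in control vehicle libraries and rose with LPS in both genotypes. It had 47.2, 45.7 and 42.3 CPM in Dicer KO LPS and 47.7, 57.3 and 48.1 CPM in control LPS libraries. In vehicle there were 28.9, 25.9 and 26.9 CPM in Dicer KO and 37.6, 38.9 and 30.3 CPM in control libraries. In both treatments all Dicer KO libraries were below all control libraries, by a narrow margin under LPS. The log2 fold change was -0.39 ± 0.09 in vehicle (adjusted p = 0.00246) and -0.18 ± 0.09 in LPS (adjusted p = 0.108), and the LPS comparison passed without control vehicle replicate 3 (-0.18, adjusted p = 0.0325), without the low-count filter (-0.19, adjusted p = 0.0264) and with only the 2 LPS groups fitted (-0.20, adjusted p = 0.0175). Scaled by library totals it was -0.53 and also passed (adjusted p = 0.000161), whereas without control LPS replicate 2 it was -0.10 (adjusted p = 0.405). LPS raised Bcl2l2 by 0.73 ± 0.09 in Dicer KO (adjusted p = 1.85e-06) and by 0.52 ± 0.09 in control (adjusted p = 4.72e-05), values that became -0.02 and 0.00 with library totals. The difference of the responses was 0.21 ± 0.13 (adjusted p = 0.243), with 0.31 without control vehicle replicate 3 (adjusted p = 0.0251) and 0.14 without control vehicle replicate 2 (adjusted p = 0.472). Of its exon bases, 13.3% are shared on the same strand with the annotated gene Gm20521, which had no counts. Reads in these shared bases may have been set aside as ambiguous.

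Bcl2 itself, the founding prosurvival gene, had the lowest level per kilobase of the members outside the Bcl2a1 copies in all 4 groups and fell with LPS in both genotypes. It had 2.63, 1.65 and 1.73 CPM in Dicer KO LPS, 1.38, 2.06 and 1.86 in control LPS, 3.12, 3.91 and 3.41 in Dicer KO vehicle and 3.48, 4.97 and 5.52 in control vehicle libraries. The genotypes overlapped in both treatments, while LPS libraries were below vehicle libraries in both genotypes. LPS lowered it by a log2 fold change of -0.79 ± 0.23 in Dicer KO (adjusted p = 0.00462) and of -1.39 ± 0.22 in control (adjusted p = 1.07e-05). The difference between Dicer KO and control was -0.42 ± 0.18 in vehicle (adjusted p = 0.0692), which passed without control vehicle replicate 1 (-0.59, adjusted p = 0.013) and was -0.28 without control vehicle replicate 3 (adjusted p = 0.216), and 0.18 ± 0.27 in LPS (adjusted p = 0.603), which turned to -0.07 without Dicer KO LPS replicate 1. On the opposite strand, D630008O14Rik overlaps 6.1% of the Bcl2 exon bases.

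The Bcl2a1 genes encode A1, a short-lived prosurvival protein that NF-κB induces and that binds BIM and BID. They lie on chromosome 9 of GRCm38, Bcl2a1d at chr9:88723285-88731914 on the minus strand, Bcl2a1a at chr9:88956900-88962419 on the plus strand and Bcl2a1b at chr9:89199209-89207827 on the plus strand. Their coding sequences, of 516 bases before the stop codon, agreed at 97.9% to 98.8% of positions in pairs. The first 60 coding bases hold 6 of the 12 positions at which the copies are not all alike, so these letters show how little separates a read of one copy from a read of another. Positions that are not shared by all of the copies are in capitals.

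Bcl2a1a: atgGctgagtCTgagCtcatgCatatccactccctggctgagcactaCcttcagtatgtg
Bcl2a1b: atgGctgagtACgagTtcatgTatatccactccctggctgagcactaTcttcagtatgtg
Bcl2a1d: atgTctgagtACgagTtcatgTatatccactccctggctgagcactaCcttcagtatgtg

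Of all 100-base stretches in each annotated transcript, 56.5% of those of Bcl2a1a, 68.9% of Bcl2a1b and 45.3% of Bcl2a1d were found in no other Bcl2a1 copy, Bcl2a1c included. Between 9.9% and 11.6% of alignments per library were set aside in the tables as not unique and could include reads of these copies. The count of a single copy is therefore uncertain, and the sum of the copies is given beside it. Bcl2a1b also shares 49.1% of its exon bases with the same-strand gene Gm29094, which had no counts. Reads in these shared bases may have been set aside as ambiguous, a row that took 0.6% to 0.8% of alignments. The level and share of Bcl2a1b may therefore be too low against the other copies.

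LPS induced the Bcl2a1 genes by larger factors than any other member, in both genotypes. Summed over the copies there were 479, 485 and 493 CPM in Dicer KO LPS libraries and 274, 248 and 245 CPM in control LPS libraries. In vehicle the sum was 2.65, 3.5 and 2.66 CPM in Dicer KO and 3.04, 3.3 and 3.47 CPM in control libraries. Under LPS every Dicer KO library was above every control library, and in vehicle the genotypes overlapped. The sum was 1.90-fold higher in Dicer KO than in control under LPS (log2 0.93 ± 0.06, adjusted p = 2.21e-10) and did not pass in vehicle (-0.16 ± 0.13, adjusted p = 0.352; -0.29 to -0.09 with 1 library left out). LPS raised it 166-fold in Dicer KO and 78.1-fold in control, and the difference of the responses was 1.09 ± 0.14 on the log2 scale (adjusted p = 1.07e-05).

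Bcl2a1d, the copy with most counts under LPS, had 313, 319 and 323 CPM in Dicer KO LPS and 179, 165 and 163 CPM in control LPS libraries. In vehicle it had 1.86, 2.52 and 1.45 CPM in Dicer KO and 1.17, 1.47 and 1.34 CPM in control libraries. It was higher in Dicer KO under LPS without overlap (0.92 ± 0.06, adjusted p = 6.68e-10). The vehicle difference (0.54 ± 0.18, adjusted p = 0.0213) came from overlapping groups and was lost when Dicer KO vehicle replicate 2 was left out (0.32, adjusted p = 0.253). Without control vehicle replicate 1 it was 0.46 (adjusted p = 0.0844). Without Dicer KO vehicle replicate 2 the difference of the LPS responses passed (0.59, adjusted p = 0.0306), whereas with all libraries it was 0.38 ± 0.19 (adjusted p = 0.149) and without Dicer KO vehicle replicate 3 it was 0.20 (adjusted p = 0.517).

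Bcl2a1a had 103, 103 and 110 CPM in Dicer KO LPS and 50.0, 45.3 and 41.8 CPM in control LPS libraries, again without overlap (1.20 ± 0.07, adjusted p = 7.49e-11). In vehicle it was seen in 5 counts over the Dicer KO libraries and 2 counts over the control libraries. The ratio of LPS to vehicle was 1311 in Dicer KO, with an exact 95% interval of 562 to 4041, and 1670 in control, with an interval of 462 to 13797. These intervals cover counting error only and overlap.

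Bcl2a1b was the copy that was lower in Dicer KO vehicle libraries. Under LPS it had 62.6, 62.6 and 60.6 CPM in Dicer KO and 45.6, 37.5 and 40.4 CPM in control libraries. In vehicle it had 0.745, 0.927 and 1.07 CPM in Dicer KO and 1.82, 1.79 and 2.13 CPM in control libraries, from 16 to 23 and 44 to 51 counts per library. Dicer KO was thus below control in vehicle (-1.06 ± 0.20, adjusted p = 0.000244) and above it under LPS (0.59 ± 0.07, adjusted p = 1.18e-06), without overlap in either. The LPS response was 6.07 ± 0.12 in Dicer KO and 4.42 ± 0.10 in control on the log2 scale, a difference of 1.65 ± 0.21 (adjusted p = 9.27e-06). As a share of the summed counts of the copies, Bcl2a1b made up 12.8% in Dicer KO LPS and 16.1% in control LPS libraries, and 31.3% in Dicer KO vehicle and 58.6% in control vehicle libraries. Bcl2a1d made up 65.6% in Dicer KO LPS and 66.0% in control LPS libraries, and 65.9% in Dicer KO vehicle and 40.6% in control vehicle libraries.

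**Figure D4:**
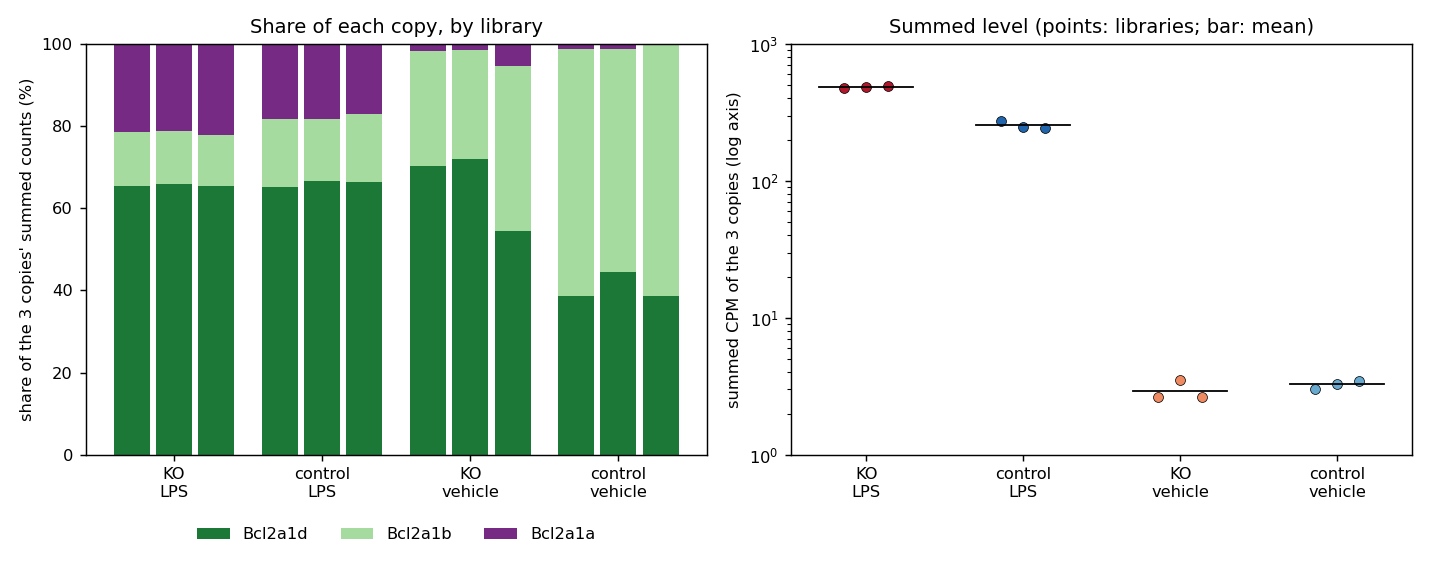
Left, share of the summed Bcl2a1 counts that fell on each copy, 1 bar per library; right, summed level of the copies in CPM on a log axis, 1 point per library. Bcl2a1b takes 31.3% of the counts in Dicer KO vehicle libraries and 58.6% in control vehicle libraries, and the sum is at 479 to 493 CPM in Dicer KO LPS and 245 to 274 CPM in control LPS libraries. Reads that Bcl2a1b shares with Gm29094 may be missing from its share.

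The promoters of the copies are as alike as their transcripts, which is why the last 150 bases before each RefSeq start site are shown (GRCm38.p6, gene strand). In the 250 bases upstream, aligned stretches were 97.5% to 99.5% identical. Capitals mark GAGGAAGT, a match to the binding motif of PU.1, the macrophage lineage factor, searched on both strands.

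Bcl2a1a: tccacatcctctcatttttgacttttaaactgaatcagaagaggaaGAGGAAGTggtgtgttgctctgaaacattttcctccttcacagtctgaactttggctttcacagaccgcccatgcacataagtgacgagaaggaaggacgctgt
Bcl2a1b: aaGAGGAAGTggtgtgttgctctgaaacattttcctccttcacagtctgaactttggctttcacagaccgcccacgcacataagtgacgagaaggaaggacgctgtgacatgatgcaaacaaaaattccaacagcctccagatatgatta
Bcl2a1d: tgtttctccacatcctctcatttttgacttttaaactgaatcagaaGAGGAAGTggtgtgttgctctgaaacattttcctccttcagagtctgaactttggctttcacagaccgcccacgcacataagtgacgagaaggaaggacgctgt

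The windows are chr9:88956770-88956919 on the plus strand for Bcl2a1a, chr9:89199123-89199272 on the plus strand for Bcl2a1b and chr9:88731851-88732000 on the minus strand for Bcl2a1d. Counted from the RefSeq starts, the motif spans positions -104 to -97 in Bcl2a1a and Bcl2a1d, and -148 to -141 in Bcl2a1b. The GENCODE starts behind the gene coordinates given above differ and lie inside all of these windows. Counted from those, the motif lies nearer to the start in each copy, and Bcl2a1b does not stand apart from Bcl2a1a. GAGGAAGT occurs in 3.2% of all 32851 RefSeq promoter windows of 300 bases, among the members also in that of Bak1. An AP-1 motif, TGANTCA, which reads alike on both strands, was found in all of these copies just upstream of GAGGAAGT and in 7.8% of all windows. The NF-κB motif, in 4.5% of all windows, was matched in a Bcl2l1 window and not in these Bcl2a1 windows, and GTAAACA, the FOXO motif (3.6% of windows), was matched in a Bcl2l11 window. GAAANNGAA (interferon response element, 8.6%) and TTCNNNGAA (STAT, 8.3%) had no match in any member's window. All motifs were searched on both strands, and a match is a description of letters, not of binding.

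Bcl2l11 encodes BIM, a BH3-only protein that binds all prosurvival members and activates effectors. It had 229, 204 and 199 CPM in Dicer KO LPS and 95.7, 95.7 and 101 CPM in control LPS libraries. In vehicle it had 195, 187 and 196 CPM in Dicer KO and 165, 170 and 153 CPM in control libraries. The 3 control LPS libraries were below all others, and Dicer KO was above control without overlap in both treatments. Its log2 fold change, Dicer KO over control, was 1.11 ± 0.06 in LPS (adjusted p = 3.45e-11) and 0.24 ± 0.06 in vehicle (adjusted p = 0.00191), the second of which came to 0.12 when scaled by library totals (adjusted p = 0.106). LPS lowered Bcl2l11 in control (-0.74 ± 0.06, adjusted p = 1.21e-09). In Dicer KO its response was 0.13 ± 0.06 (adjusted p = 0.0502; -0.62 with library totals), a value that passed without Dicer KO LPS replicate 3 (0.17, adjusted p = 0.0252), without control vehicle replicate 3 (0.13, adjusted p = 0.0322) or without control LPS replicate 2 (0.14, adjusted p = 0.0409). It also passed with DESeq2 size factors (0.21, adjusted p = 0.00327) and in DESeq2 (0.19, adjusted p = 0.00495), and came to 0.06 without Dicer KO LPS replicate 1 (adjusted p = 0.309). The difference of the responses was 0.86 ± 0.08 (adjusted p = 4.29e-07).

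Bid encodes a BH3-only protein that caspase-8 cleaves to its active form and so links death receptors to mitochondria. It had 79.4, 83.9 and 75.8 CPM in Dicer KO LPS and 32.6, 29.0 and 29.1 CPM in control LPS libraries. In vehicle there were 60.6, 67.2 and 68.5 CPM in Dicer KO and 33.1, 35.2 and 47.0 CPM in control libraries, and the highest control library was the one that stood apart. All Dicer KO libraries were above all control libraries. Bid was higher in Dicer KO by 1.40 ± 0.11 on the log2 scale in LPS (adjusted p = 1.28e-07) and by 0.77 ± 0.11 in vehicle (adjusted p = 4.81e-05). Its LPS response was 0.28 ± 0.10 in Dicer KO (adjusted p = 0.0219; -0.46 with library totals) and -0.35 ± 0.11 in control (adjusted p = 0.0122), a difference of 0.63 ± 0.15 (adjusted p = 0.00614). The response in Dicer KO did not pass without Dicer KO LPS replicate 1 (0.29, adjusted p = 0.0525), Dicer KO LPS replicate 2 (0.25, adjusted p = 0.0753) or Dicer KO vehicle replicate 1 (0.23, adjusted p = 0.0815), nor did that in control without control LPS replicate 2 (-0.30, adjusted p = 0.0614). Without control vehicle replicate 3, the library that stood apart, the response in control was -0.18 and still passed (adjusted p = 0.0337). Of its exon bases, 17.7% overlap Bcl2l13 on the opposite strand, and the strand setting of the counts is not given in the sources used here.

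Bak1, the effector gene, rose with LPS in both genotypes and was higher in Dicer KO in both treatments. It had 231, 239 and 235 CPM in Dicer KO LPS and 171, 156 and 161 CPM in control LPS libraries. In vehicle it had 107, 108 and 119 CPM in Dicer KO and 69.1, 65.4 and 76.5 CPM in control libraries. None of the groups overlapped. The log2 fold change, Dicer KO over control, was 0.53 ± 0.06 in LPS (adjusted p = 5.3e-07) and 0.66 ± 0.06 in vehicle (adjusted p = 1.03e-07). LPS raised Bak1 by 1.08 ± 0.06 in Dicer KO (adjusted p = 4.94e-12) and by 1.21 ± 0.06 in control (adjusted p = 1.23e-12). The difference of these responses was -0.13, with an approximate 95% interval of -0.30 to 0.04, and was -0.22 without both libraries that stood apart (adjusted p = 0.0248). Scaling by library totals made it -0.36 (adjusted p = 0.00143), and without control vehicle replicate 2 it was -0.08 (adjusted p = 0.535). Ggnbp1 overlaps 25.5% of the Bak1 exon bases on the opposite strand.

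**Figure D5:**
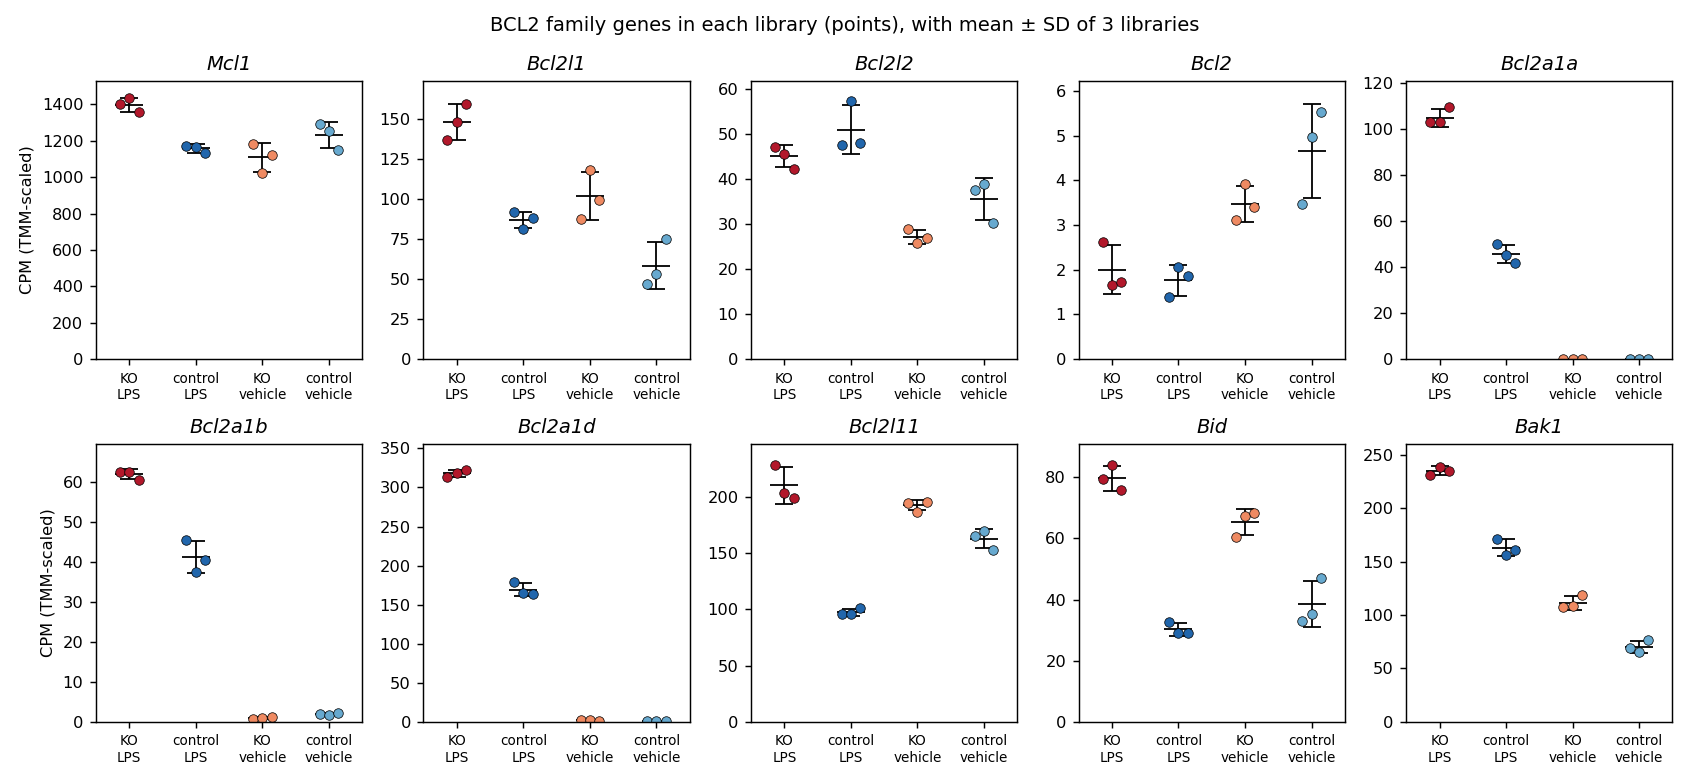
CPM of each gene in each of the 12 libraries (points), with mean and SD per group, on linear axes that start at 0. Bcl2l11 is at 199 to 229 CPM in Dicer KO LPS and 95.7 to 101 CPM in control LPS libraries, and Bid at 75.8 to 83.9 and 29.0 to 32.6 CPM.

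MicroRNAs that repress members of the family in other cells were taken from published links: the miR-17 and miR-92 families and miR-19 for mouse Bcl2l11, and, from human cells, miR-15/16 and miR-34 for BCL2, miR-29 for MCL1, miR-125 for BAK1 and let-7 for BCL-XL. Mature microRNAs were not measured here, and these families were chosen after the gene values were known. Their mature sequences (RefSeq, GRCm38.p6) are shown 5′ to 3′ with the seed, bases 2 to 8, in capitals, because the seed is what pairs with a target.

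miR-17-5p: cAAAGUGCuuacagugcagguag
miR-20a-5p: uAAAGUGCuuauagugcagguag
miR-106b-5p: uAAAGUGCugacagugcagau
miR-92a-3p: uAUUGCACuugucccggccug
miR-25-3p: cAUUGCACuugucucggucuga
miR-19b-3p: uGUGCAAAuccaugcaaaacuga
miR-125b-5p: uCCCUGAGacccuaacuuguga

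The first 3 share the seed AAAGUGC and the next 2 AUUGCAC. In the longest annotated 3′ UTR of Bcl2l11 the match to AAAGUGC occurs 2 times, that to AUUGCAC 2 times, and those to the seeds of miR-19 and miR-29 1 time each. Over the 11764 tested genes with an annotated 3′ UTR, 15.1% hold a match to the miR-17 seed, 7.7% to that of miR-92, 13.5% to that of miR-19 and 16.9% to that of miR-29. The Bcl2l11 UTR is 4218 bases long, and longer UTRs hold more matches. Sites of Bcl2l11 and Bak1 follow, with the bases that pair with the seed in capitals (30 bases each, GENCODE M21 transcripts).

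Bcl2l11 miR-17 site 1: acagcctggtggaggaGCACTTTctaacct
Bcl2l11 miR-17 site 2: agtctccccgactggaGCACTTTactgtct
Bcl2l11 miR-92 site 1: tgagccaaatgtctctGTGCAATtgtgttc
Bcl2l11 miR-92 site 2: aattgccactgtacctGTGCAATactgctg
Bak1 miR-125 site: ccttggcggctggactCTCAGGGattctga

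Bak1 held 1 match each to miR-125 (17.2% of genes with a UTR), miR-92 and miR-29, and Mcl1 1 each to miR-29, miR-17, miR-92 and miR-125. Bcl2l1 held 1 match, to let-7 (12%), and Bcl2 1 each to miR-15/16 (27.4%), miR-17 and miR-125 and none to miR-34 (18.9%). Bid held 1 match each to miR-17 and miR-34. Bcl2l2, which was lower in Dicer KO vehicle libraries, held 4 matches to miR-15/16, 2 to miR-29 and 1 each to miR-17 and miR-34. The miR-15/16 matches that start at UTR bases 1696 and 1699 overlap each other and a miR-29 match that starts at base 1693. These are therefore not separate stretches. The Bcl2a1 copies, which were higher in Dicer KO under LPS, held no match to any of the 8 families, in UTRs of only 147 to 149 bases against 1477 to 5086 bases in the other members. Whether any of these sites bears on the levels was not tested.

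The counts of other genes of the pathway are to be read against the shares over all tested genes in Dicer KO against control, 28.8% higher and 27.0% lower in LPS and 25.0% and 21.2% in vehicle. Of 15 other BCL2 family genes listed, 10 were tested, of which 3 were higher and 3 lower in Dicer KO under LPS, and 4 higher and 2 lower in vehicle, with the LPS counts close to those shares. In vehicle Bax, the second effector, was at 130 ± 4.73 CPM in Dicer KO and 96.5 ± 4.41 CPM in control libraries (log2 0.43, adjusted p = 2.12e-06), and Pmaip1, which encodes the MCL1 antagonist NOXA, at 39.0 ± 5.94 and 19.6 ± 3.94 CPM (0.99, adjusted p = 3.91e-05). Bnip3, a BH3-like gene of mitophagy, was lower in Dicer KO in vehicle (-1.52, adjusted p = 0.00567) and in LPS (-1.23, adjusted p = 0.0109). Under LPS Bbc3, the gene of PUMA, was at 5.94 ± 0.493 CPM in Dicer KO and 7.94 ± 1.27 CPM in control libraries (-0.42, adjusted p = 0.0103). LPS lowered Bmf, a BH3-only gene, by a log2 fold change of -3.73 in Dicer KO and -3.37 in control. In their LPS response 4 of these genes were more negative in Dicer KO (Bnip3l, Bcl2l13, Bbc3 and Bax) and none more positive. Over all tested genes 18.8% were more negative and 14.9% more positive. At an unadjusted p under 0.05 in edgeR 5 of the listed genes were more negative, with Pmaip1 as well, and again none more positive. Under library totals none was called higher and 7 lower in Dicer KO under LPS, and 3 each way in vehicle. Over all 13837 tested genes that scaling gave 1885 higher and 7626 lower in LPS, and 2229 and 4577 in vehicle. Counts with library totals in the next paragraphs are to be read against the same numbers.

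Downstream of the pores, 16 genes of the apoptosome, caspases and mitochondrial release were tested, of which 8 were higher and 4 lower in Dicer KO in LPS and also in vehicle (5 and 9 in LPS, 4 and 5 in vehicle with library totals). Under LPS Casp2 was higher in Dicer KO (log2 fold change 1.21), and Vdac1, a channel of the outer membrane, was lower (-0.82). The LPS response of Casp2 was greater in Dicer KO by 1.31 (adjusted p = 1.92e-07). Cycs, the gene of cytochrome c, was higher in Dicer KO vehicle libraries (0.98, adjusted p = 1.55e-07), as was Apaf1, which forms the apoptosome (0.50, adjusted p = 1.43e-05).

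Among 8 inhibitor of apoptosis genes, 5 were higher and none lower in Dicer KO under LPS, and 2 were higher and 1 lower in vehicle (4 and 1, and 1 and 2, with library totals). Under LPS none was lower at an unadjusted p under 0.05 in edgeR. Xiap, which blocks caspases directly, was at 212 ± 1.87 CPM in Dicer KO LPS and 151 ± 2.86 CPM in control LPS libraries (0.49, adjusted p = 2.06e-08). Birc3, an NF-κB target, was lower in Dicer KO vehicle libraries (-0.52, adjusted p = 0.00152) and was raised by LPS by 2.79 in Dicer KO and 2.20 in control on the log2 scale. Of 9 upstream regulators 7 were higher and 2 lower in Dicer KO under LPS, and 6 and 1 in vehicle (3 each, and 3 and 2, with library totals). Casp8, whose product cleaves BID, was at 446 ± 5.42 CPM in Dicer KO LPS and 228 ± 13.4 CPM in control LPS libraries (0.96, adjusted p = 4.02e-10), and Cflar, which encodes its inhibitor cFLIP, was higher as well (0.50, adjusted p = 1.25e-07). Foxo3, a transcription factor known to activate Bcl2l11, was lower in Dicer KO under LPS, at 23.6 ± 1.52 CPM against 49.1 ± 4.27 CPM in control (-1.06, adjusted p = 1.65e-09). Fbxw7, part of a ligase that marks MCL1 for degradation, was higher (1.42, adjusted p = 1.65e-10).

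The genes most like each member over the 12 libraries, by the root mean square difference of log2 profiles centred on their means, were sought among 9228 protein-coding genes with a mean of at least 5 CPM. For Bcl2l11 they were Otud7b (0.107) and Mmd (0.121), where the profile of Bcl2l11 itself varied by 0.433 around its mean. Bid was nearest to Cpeb3 (0.127) and Fcna (0.154), Bak1 to Pxk (0.071) and Rab1a (0.073), and Mcl1 to Ptp4a2 (0.060) and Ddx52 (0.062). Bcl2l1 was nearest to Jpt2 and Gna15, Bcl2l2 to Zfp654 and Slc30a9, and Bcl2 to Lrp1 and Plpp2. Among LPS-induced genes Bcl2a1a was nearest to Ptges (0.395) and Il6 (0.403), Bcl2a1b to Cd200 (0.227) and Pfkfb3 (0.258), and Bcl2a1d to U90926 (0.187) and Cnn3 (0.265). These likenesses describe shared responses to the 4 conditions, since the points share their libraries.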

How the data were processed

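Gene counts of 12 RNA-seq libraries were used as the authors deposited them: whole-number counts per Ensembl gene, 1 table per library. The submitters' processing notes name STAR 2.5, DESeq2, mm10 and GRCm38.p5; how reads were assigned to genes, on which strand and with which annotation is not given there. Rows that name no gene were left out of library sizes: alignments with no feature took 45.8% to 46.8%, non-unique ones 9.9% to 11.6%. GENCODE M21 (GRCm38) matched 45229 of 46078 identifiers; unmatched ones held 0.141% of counts. The members and lists were chosen with earlier results of these data known. Counts were filtered with filterByExpr, scaled by TMM and fitted over all 4 groups with edgeR 4.0.16 (quasi-likelihood test, Benjamini-Hochberg adjustment over 13837 genes, threshold 0.05). The SE is the size of the log2 fold change divided by the square root of its F statistic. Intervals are the estimate ± 1.96 SE. This multiplier leaves out the limited degrees of freedom of the test, so all of these intervals are approximate and somewhat too narrow. Those of Bcl2a1a, which had few vehicle counts, are narrower than counting error alone. The model was tested on simulated data. The common biological coefficient of variation was 6.3%. Alternatives were other scalings, filters, DESeq2 1.42.0, only the 2 groups compared, a replicate block and leaving out libraries. Fits on counts of the 3 Bcl2a1 copies summed used the same model. All 10 members are described; of other lists up to 4 genes with the smallest adjusted p per comparison were eligible to be named, and each member's 2 most similar genes. Seed and motif searches were added after the gene values were seen. Some genes of these lists are not reported here.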

Additional observations from a re-analysis of the deposited data

Results flagged for a closer look

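For 4 genes the test of the difference between the LPS response in Dicer KO and in control macrophages passed, and each is a log2 difference of responses, Dicer KO minus control: Bcl2l11 by 0.86, Mcl1 by 0.42, Bcl2a1b by 1.65 and Bid by 0.63. The summed counts of the Bcl2a1 copies gave 1.09. In Bcl2l11 and Bid the response was negative in control and positive in Dicer KO under TMM scaling, although that of Bcl2l11 in Dicer KO was not called; under library totals both responses were negative in both genotypes. The Bcl2a1b difference contains its lower vehicle level in Dicer KO, from 16 to 23 counts per library, against 44 to 51 in control.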

How the results depend on the processing

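With library totals, members called in Dicer KO against control were 3 higher and 4 lower in vehicle and 1 lower in LPS; for LPS in Dicer KO they were 4 and 4, and 1 was lower for the difference of LPS responses. Without the low-count filter 4 were lower in vehicle and 1 in LPS, with only the 2 groups compared 1 was lower in LPS, and without Dicer KO vehicle replicate 2 and control vehicle replicate 3 together 1 was lower in LPS and 1 for the difference. Leaving out 1 library gave 0 to 1 lower in LPS. Signs reversed with library totals for Bcl2 (-0.17) and Mcl1 (-0.08) in Dicer KO against control in LPS, for Bcl2l2 in control (-0.00), for Bcl2l1 (-0.20), Bcl2l2 (-0.02), Bcl2l11 (-0.62), Mcl1 (-0.42) and Bid (-0.46) in Dicer KO, and for the Bcl2l2 difference of responses (-0.02). The Bcl2l1 difference was 0.02 with DESeq2 size factors and 0.01 with DESeq2, and -0.25 to 0.11 over fits without 1 library. Without 1 library the Bcl2 value in LPS ran from -0.07 to 0.30 and the Bcl2a1a difference of responses from -0.46 to 0.49; without both libraries that stood apart the Bcl2a1a difference was 0.13. The reversed values near 0 were not called, except those of Bcl2l11, Mcl1 and Bid for LPS in Dicer KO under library totals. Of 989 refitted member values, 926 kept their direction and their side of the threshold, 31 newly passed it, 12 no longer passed it and 20 changed sign; causes were not tested. The summed Bcl2a1 counts kept their calls in all settings run, with 0.89 to 0.98 for Dicer KO against control in LPS without 1 library. Same-numbered libraries correlated by -0.232 to 0.182 in their deviations from the group means, and libraries with other numbers by -0.317 to 0.342. With 3 libraries per group these values cannot show whether a number marks a shared mouse or day, and the labels do not say. With a replicate block the members called in vehicle stayed at 5 higher and 2 lower, and over all genes 3431 were higher and 2879 lower. Copies with 5 and 2 vehicle counts (Bcl2a1a) and 16 to 51 per library (Bcl2a1b) limit the precision of their LPS responses, and reads shared between copies limit that of each copy.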
